A study of Rattus norvegicus with 8 samples.

Results

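Rat cardiomyoblasts that carried the S280D form of PPARα were compared with cells that carried the wild-type receptor (WT), across all genes. The members are the 4 libraries whose titles name these receptors, 2 of S280D and 2 of WT, out of 8 libraries in the series. The deposited counts list 32258 features, of which 12407 had enough exon reads to be tested. The cells were H9C2, a rat line derived from embryonic heart and called cardiomyoblasts by the labels. S280D cells had received a pDC316 vector with yellow fluorescent protein (YFP) fused to PPARα in which aspartate replaces serine 280, which mimics phosphorylation there. WT cells had received the same vector with YFP fused to the unmodified receptor. Cells with the S280A receptor, where alanine at the same position cannot be phosphorylated, and cells with YFP alone made up the remaining 4 libraries. For some genes their levels are given beside those of S280D and WT. Every group was exposed to its vector for 2 days, so all cells compared carried YFP. The labels do not say whether both libraries of a group were grown as separate cultures, and the p-values cover only the spread between the libraries at hand, with n = 2 per group.

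PPARα is a nuclear receptor that fatty acids and fibrate drugs activate. It binds DNA as a pair with the retinoid X receptor at direct repeats of a hexamer and switches on genes of fatty acid uptake, oxidation and ketone body synthesis, which is what it is best known for in heart and liver. The receptor is also known to hold back inflammatory genes driven by NF-κB, a family of transcription factors that inhibitor proteins keep in the cytoplasm. Glycogen synthase kinase 3α is known to phosphorylate the receptor at serine 280, and the comparison asks what a fixed negative charge at that position changes.

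Strand-specific poly(A) libraries held 39526013 and 21050137 exon reads in S280D, in the order of the replicate numbers, and 19229424 and 16698202 in WT. Both WT libraries and S280D replicate 2 came from lane 2, and S280D replicate 1 from lane 1. Both YFP libraries came from lane 1, S280A replicate 1 from lane 2 and S280A replicate 2 from lane 1. Where YFP levels are set beside WT below, construct and lane cannot be told apart. Levels moved unequally with exon length. Spearman's rho across genes, which are no independent replicates, between exon length and the level relative to the 4-library mean was 0.201 and 0.00657 in S280D, against -0.141 and -0.122 in WT. Markers of skeletal myoblasts summed to 91.1 and 93.9 CPM, exon reads scaled to library size, in S280D and 79.3 and 92.4 CPM in WT. Most of it was Acta1, and 11 of 14 were under 1 CPM in all 4 libraries. Cardiac markers summed to 296 and 295 CPM in S280D and 200 and 232 CPM in WT, most of it Tnnt2, with 9 of 15 under 1 CPM in all 4 libraries. The cardiac myosin gene Myh6 did not exceed 0.417 CPM. Fibroblast and smooth muscle markers summed to 43005 and 47259 CPM in S280D and 40940 and 46049 CPM in WT. The largest part was Col1a1, at 21665 and 23546 CPM in S280D and 18958 and 22479 CPM in WT. Of 11 tested markers of this list, 5 had a higher estimate in S280D and 6 a lower one. Macrophage markers summed to 20.7 and 22.3 CPM in S280D and 19.7 and 22.8 CPM in WT. Most of it was Cd14, at 19.9 and 21.4 CPM in S280D, and 6 of 8 were under 1 CPM. Endothelial markers summed to 70.3 and 74.6 CPM against 65.5 and 63.2 CPM. Most of it was Flt1, at 68.3 and 73.1 CPM in S280D, and 5 of 7 were under 1 CPM. In bulk RNA, fewer cells of a type and less RNA per cell cannot be told apart.

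The receptor itself was measured first. Ppara, on chromosome 7 from 126619196 to 126681752 in Rnor_6.0, had 17911 and 17693 CPM in S280D, against 12382 and 24134 CPM in WT. The S280D libraries lay between the WT libraries. Its log2 fold change was -0.04 ± 0.25 (SE), with a 95% interval of -0.59 to 0.51 and an adjusted p of 0.989 in edgeR's quasi-likelihood test, which is used for all single genes below with Benjamini-Hochberg adjustment over the genes tested. Without WT replicate 2 the value was 0.53 and without WT replicate 1 it was -0.44. Reads of the delivered and the endogenous gene were counted together, so the level checks delivery and not the mutation. In the YFP libraries, which received no receptor, Ppara stood at 74.4 and 59.5 CPM.

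In S280D 5 inflammatory and immune genes fell against WT, and no gene rose. They were Zc3h12a, Cxcl1, Gbp5, Nfkbiz and RT1-CE2, which make up 0.0403% of the 12407 genes tested at an adjusted p under 0.05. Against these 5 lower and 0 higher in edgeR, DESeq2 called 32 lower and 8 higher (0.263% and 0.0658% of the genes to which it gave an adjusted p). At an adjusted p under 0.05 the authors' deposited table called 37 lower and 13 higher (0.115% and 0.0403% of its features). All 5 genes were called in the same direction by DESeq2 and in the authors' deposited table. At an unadjusted p under 0.05, 332 genes were lower (2.68%) and 274 higher (2.21%). The median standard error of a log2 fold change was 0.18, and for 78.8% of the genes the 95% interval lay inside a log2 difference of 1 in either direction. A log2 difference of at least 1 in size was estimated for 271 genes, of which 136 had an interval off 0.

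**Figure D1:**
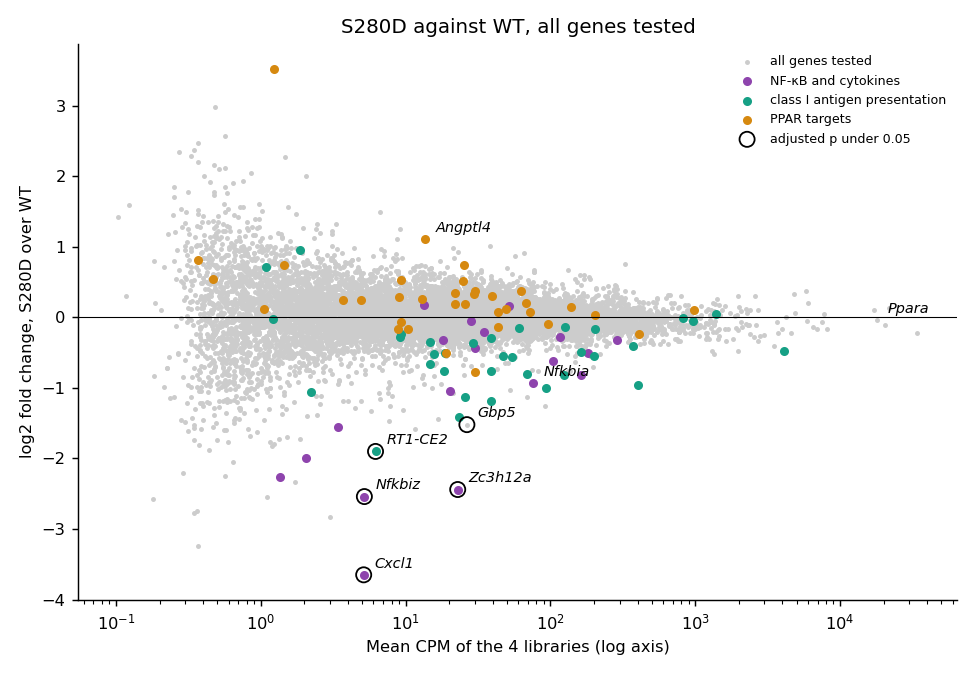
Each point is 1 of the 12407 genes, with its mean CPM over the 4 libraries on the horizontal log axis and its log2 fold change of S280D over WT on the vertical axis. Black rings mark the 5 genes with an adjusted p under 0.05, all below 0. Coloured points are members of 3 lists, among them the PPAR target Angptl4 at 1.11.

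Zc3h12a encodes Regnase-1, an RNase that degrades messenger RNAs of cytokines. It stood at 7.59 and 6.6 CPM in S280D and at 35.1 and 42.3 CPM in WT, and its log2 fold change was -2.44 with an SE of 0.23 (adjusted p = 0.00483). The S280A libraries had 7.93 and 6.2 CPM and the YFP libraries 6.38 and 10.6 CPM, so the WT libraries stood above the other 6. Its place is chromosome 5, 143111074 to 143120165, in Rnor_6.0, as for all gene positions here.

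Cxcl1, a chemokine that attracts neutrophils, showed the largest fall among the called genes. S280D libraries held 39 and 11 of its reads, or 0.943 and 0.501 CPM, against 168 and 180 reads, or 8.4 and 10.7 CPM, in WT. The log2 fold change was -3.65 ± 0.41, where ± gives the SE here and below (adjusted p = 0.0107). S280A held 0.211 and 0.725 CPM and YFP held 0.351 and 0.358 CPM, again below both WT libraries. Its locus is chromosome 14, 18743685 to 18745457.

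Nfkbiz encodes IκBζ, a nuclear cofactor of NF-κB that many secondary inflammatory genes need. It had 1.64 and 1.37 CPM in S280D and 8.4 and 9.36 CPM in WT (log2 fold change -2.54 ± 0.33, adjusted p = 0.0276). S280A had 0.913 and 0.725 CPM, and YFP had 0.468 and 1.12 CPM. The gene lies on chromosome 11, 47243342 to 47271487.

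Gbp5 is an interferon-induced GTPase of the guanylate binding family. S280D held 15.2 and 12.2 CPM and WT 35.6 and 43 CPM, a log2 fold change of -1.52 ± 0.18 (adjusted p = 0.0133). S280A levels of 16.4 and 14.1 CPM and YFP levels of 8.26 and 6.85 CPM were below both WT libraries. Its locus is chromosome 2, 248178389 to 248197160.

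RT1-CE2 is a class I gene of the rat major histocompatibility complex, RT1, whose products present peptides to T cells. It had 2.9 and 2.28 CPM in S280D and 9.85 and 9.77 CPM in WT, a log2 fold change of -1.9 ± 0.27 (adjusted p = 0.048). Here S280A, at 4.42 and 7.09 CPM, and YFP, at 7.61 and 5.47 CPM, lay between S280D and WT. Only 41.2% of its exon reads were unique to it, and on unique reads the log2 fold change was -1.75 with an adjusted p of 0.0913. The table gives it a span on chromosome 20 from 4638663 to 4943564, so both its level and its call are uncertain.

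**Figure D2:**
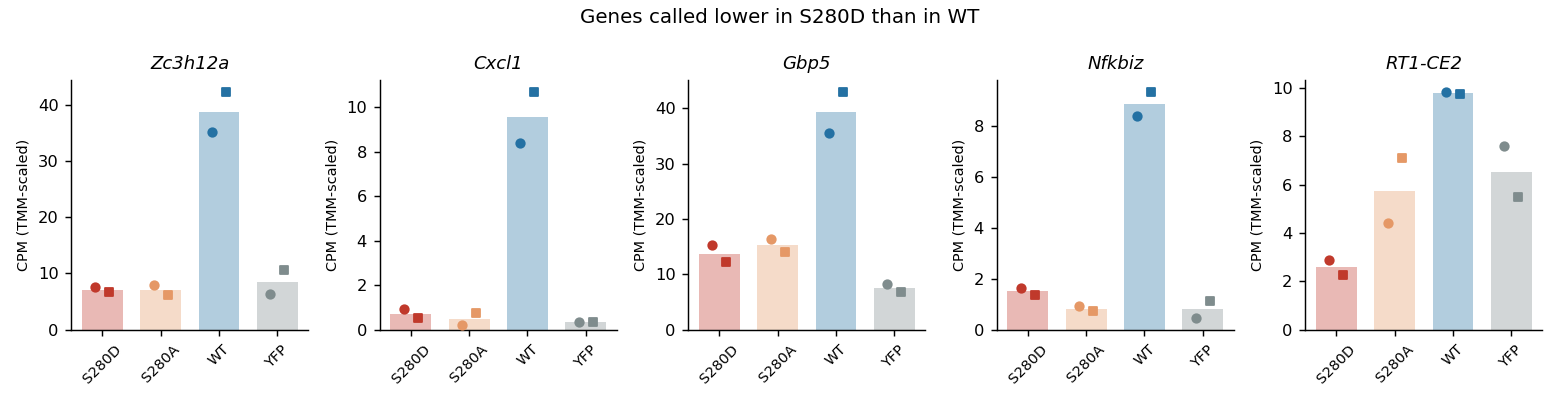
CPM (vertical axes, from 0) of the 5 genes called lower in S280D than in WT, by construct. Bars are means of 2 libraries, circles replicate 1 and squares replicate 2; in each panel both S280D points lie below both WT points.

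The calls rested on few libraries. Without S280D replicate 1 the remaining S280D and WT libraries were all from lane 2, though the fit still held S280A and YFP libraries of lane 1. S280D then rested on 1 library. The log2 fold changes were -2.55 for Zc3h12a, -4.23 for Cxcl1, -2.69 for Nfkbiz, -1.69 for Gbp5 and -2.1 for RT1-CE2. Without S280D replicate 2 no gene was called, and without WT replicate 1 or without WT replicate 2 only Zc3h12a remained of the 5 (adjusted p = 0.0257 and 0.0282). The log2 fold changes stayed between -2.57 and -2.29 for Zc3h12a, -4.23 and -3.33 for Cxcl1, -2.69 and -2.43 for Nfkbiz, -1.69 and -1.37 for Gbp5, and -2.1 and -1.75 for RT1-CE2 when 1 library was left out. With lane as a covariate Cxcl1 alone was called, at an adjusted p of 0.0181, and Zc3h12a had 0.0518. With all libraries thinned to the smallest total Cxcl1 and RT1-CE2 lost their calls (adjusted p = 0.154 and 0.0673), and against a fold of 1.5 only Cxcl1 and Zc3h12a passed. RT1-CE2 also lost its call with RLE factors (adjusted p = 0.0556) and with a filter at 1 CPM (0.0546). With an offset for exon length all 5 were called.

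Bases before the transcription start of these genes are shown because the letters of an NF-κB site recurred among them. The sequences are the 250 bases upstream of each start in RefSeq on the GRCr8 assembly, a newer build than that of the counts, written 5′ to 3′ along the gene. They come from chr14:17479322-17479571 on the minus strand for Cxcl1, chr2:233910749-233910998 on the plus strand for Gbp5, chr11:58251471-58251720 on the plus strand for Nfkbiz and chr6:78597073-78597322 on the minus strand for Nfkbia, a gene described below. Zc3h12a is at chr5:142669986-142670235 on the minus strand and RT1-CE2 at chr20:3546518-3546767 on the minus strand. Capitals mark matches to the NF-κB consensus on either strand, with overlapping matches joined.
Cxcl1: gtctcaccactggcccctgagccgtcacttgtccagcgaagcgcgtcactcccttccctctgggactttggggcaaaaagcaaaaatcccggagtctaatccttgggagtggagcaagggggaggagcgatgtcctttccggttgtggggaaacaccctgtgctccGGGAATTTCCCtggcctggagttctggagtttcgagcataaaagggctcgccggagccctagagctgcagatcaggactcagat
Gbp5: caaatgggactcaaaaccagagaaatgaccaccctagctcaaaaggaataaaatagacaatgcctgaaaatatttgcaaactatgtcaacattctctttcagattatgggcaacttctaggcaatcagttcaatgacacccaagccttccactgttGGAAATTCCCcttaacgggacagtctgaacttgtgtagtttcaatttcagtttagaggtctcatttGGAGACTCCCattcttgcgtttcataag
Nfkbiz: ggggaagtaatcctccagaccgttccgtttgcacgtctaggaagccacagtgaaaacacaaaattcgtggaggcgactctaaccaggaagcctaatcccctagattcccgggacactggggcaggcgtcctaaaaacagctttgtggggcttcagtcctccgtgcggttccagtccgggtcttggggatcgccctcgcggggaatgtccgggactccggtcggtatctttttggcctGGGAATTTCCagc
Nfkbia: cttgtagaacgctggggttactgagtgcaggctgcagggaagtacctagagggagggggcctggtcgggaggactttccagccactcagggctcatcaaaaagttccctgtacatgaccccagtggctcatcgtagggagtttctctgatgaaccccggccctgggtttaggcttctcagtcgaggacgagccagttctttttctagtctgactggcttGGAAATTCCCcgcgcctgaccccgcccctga
Zc3h12a: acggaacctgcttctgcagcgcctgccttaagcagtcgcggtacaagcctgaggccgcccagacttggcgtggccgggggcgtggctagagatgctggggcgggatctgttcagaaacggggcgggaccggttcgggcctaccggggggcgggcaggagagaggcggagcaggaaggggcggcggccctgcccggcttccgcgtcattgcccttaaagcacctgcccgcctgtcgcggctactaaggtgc
RT1-CE2: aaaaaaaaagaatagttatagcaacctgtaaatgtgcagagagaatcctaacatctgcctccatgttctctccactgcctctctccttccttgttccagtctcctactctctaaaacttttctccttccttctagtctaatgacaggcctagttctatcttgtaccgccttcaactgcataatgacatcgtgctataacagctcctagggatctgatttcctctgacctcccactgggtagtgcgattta
The consensus was found in 3 of the 5 called genes, namely Cxcl1, Gbp5 and Nfkbiz, and in 3.52% of 27457 rat promoters of the same length. In Nfkbiz the match lay 13 to 4 bases before the start, in Nfkbia 31 to 22 bases and in Cxcl1 84 to 75 bases. Gbp5 held matches at 94 to 85 and at 28 to 19 bases, and between them, at 56 to 47 bases, a match to the core of the interferon-stimulated response element, GAAA repeated after a gap of 2 bases of any kind. That element was found in 3.29% of promoters. Neither motif had a match in the 250 bases of Zc3h12a and RT1-CE2, which says only that these letters are absent from the windows. A match describes letters and does not show that a factor binds there.

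Other NF-κB targets and cytokines lay mostly on the same side as the called genes. Of 24 genes in the NF-κB and cytokine list 19 were tested, of which Zc3h12a, Cxcl1 and Nfkbiz fell, none rose and 16 did not pass. Of all genes tested, 0.0403% were called lower. This list, like the others below, was written with earlier results of these data known, so its counts are a description. An unadjusted p under 0.05 with a lower level was found for 13 of the 19, beside 2.68% of all genes. These 13 include the called Zc3h12a, Cxcl1 and Nfkbiz. Both S280D libraries were below both WT libraries for 16 of the 19 (84.2%), beside 21.2% of all genes. The median log2 fold change was -0.62, beside 0.005 over all genes. It ranged from -0.73 to -0.48 over the alternatives tried. DESeq2 called 6 of the 19 lower, and 8 were called lower in the authors' deposited table. The genes of this list named beyond its top 3 were picked after their values were seen.

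Nfkbia, which encodes the inhibitor IκBα and is itself an NF-κB target, was next in the order of p-values. It had 55.3 and 48.6 CPM in S280D and 93.6 and 105 CPM in WT, a log2 fold change of -0.93 ± 0.15 with an adjusted p of 0.0874, so it did not pass. On reads unique to 1 gene its adjusted p was 0.0374. S280A stood at 71.9 and 78.2 CPM and YFP at 77.2 and 59.3 CPM, all between S280D and WT.

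Chemokine and adhesion genes gave lower values without passing. Ccl2, which attracts monocytes, had 0.774 and 0.865 CPM in S280D and 3.75 and 2.8 CPM in WT (log2 fold change -2 ± 0.43, adjusted p = 0.265). Ccl7, a related chemokine, had 0.653 and 0.228 CPM in S280D and 1.95 and 2.62 CPM in WT (-2.26 ± 0.54, adjusted p = 0.376). The adhesion molecule Vcam1 stood at 1.89 and 1.55 CPM in S280D and 5 and 5.19 CPM in WT (-1.55 ± 0.31, adjusted p = 0.21). In all of these the groups did not overlap. Icam1, another adhesion molecule, was far more abundant at 148 and 153 CPM in S280D and 200 and 227 CPM in WT, with a smaller difference of -0.5 ± 0.13 (adjusted p = 0.492).

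Not every inflammatory gene lay on that side. The cytokine gene Il6 had 17.2 and 11.3 CPM in S280D and 11.7 and 13.8 CPM in WT, and the groups overlapped. Ptgs2, the inducible cyclooxygenase, had 58.3 and 50.2 CPM in S280D and 47.4 and 49.9 CPM in WT, a log2 difference of 0.16 ± 0.21. The 95% intervals were -0.31 to 0.64 for Il6 and -0.29 to 0.61 for Ptgs2, so changes as large as those of Cxcl1 lay outside them.

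Subunits and inhibitors of NF-κB were listed after the values had been seen, and their counts are a description. This list, the NF-κB and cytokine list and those of class I, complement and interferon genes held 103 tested genes. Of these 10, Nfkbiz among them, were in more than 1 of the 5 lists, so the list counts overlap. Of 22 genes 21 were tested, of which Nfkbiz was called lower (beside 0.0403% of all genes). At an unadjusted p under 0.05, 9 were lower (beside 2.68% of all genes) and none higher (beside 2.21%). Relb, the subunit of the non-canonical pathway, had 13.3 and 13.3 CPM in S280D and 23 and 31.8 CPM in WT (log2 fold change -1.04 ± 0.22, adjusted p = 0.258). Its partner Nfkb2 had 83.8 and 80.6 CPM in S280D and 116 and 137 CPM in WT (-0.62 ± 0.14, adjusted p = 0.344). The inhibitor Nfkbie stood at 11.5 and 11.2 CPM in S280D, below the 17.3 and 23.1 CPM in WT (-0.83 ± 0.18, adjusted p = 0.258). Rela, the main activating subunit, differed by -0.27 ± 0.14 and Nfkb1 by -0.21 ± 0.14 (adjusted p = 0.948 each). The kinase genes Chuk, Ikbke and Ikbkg, whose products phosphorylate the inhibitors or scaffold that step, had positive values of 0.35, 0.49 and 0.22. Ikbkb, the main kinase of IκBα, had 33.5 and 36 CPM in S280D and 37.2 and 44.3 CPM in WT (-0.23 ± 0.13), and the kinase genes Tbk1 and Map3k14 differed by 0.09 and 0.03. None of these kinase genes passed. DESeq2 called 5 of the 21 lower, and 4 were called lower in the authors' deposited table.

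**Figure D3:**
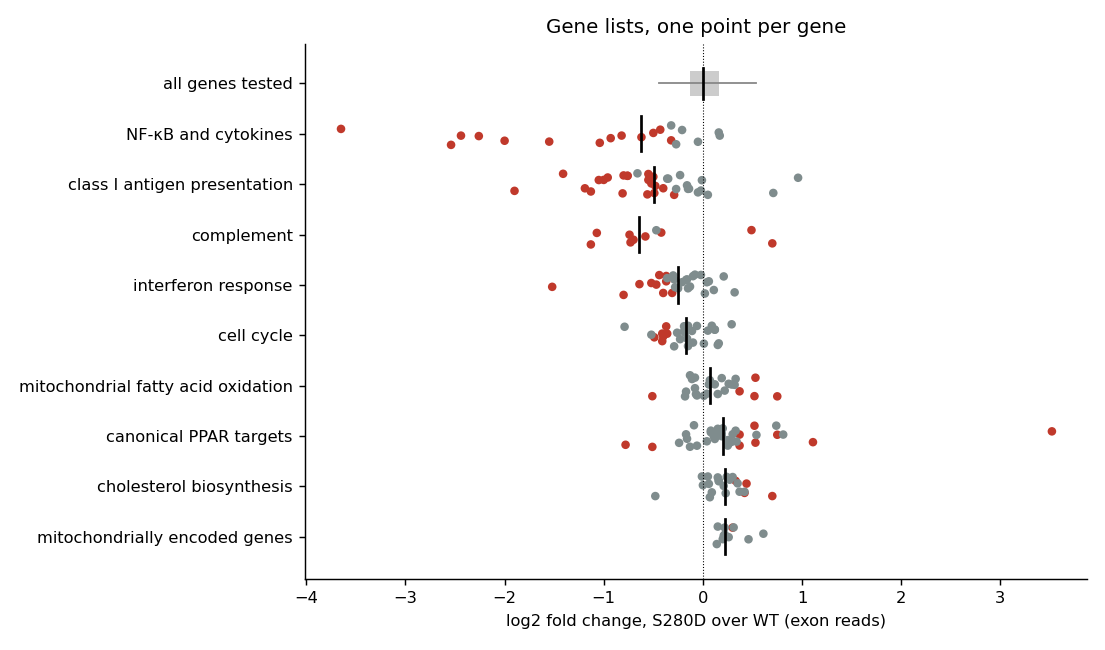
Log2 fold change of S280D over WT on exon reads (horizontal axis), with 1 point per gene and the list medians as black lines. Red points have an unadjusted p under 0.05; the grey box at the top spans the middle 50% of all genes tested and its line the middle 90%. The NF-κB list has a median of -0.62 and the cholesterol list one of 0.22.

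Class I antigen presentation was also listed after the values had been seen. Of 40 listed genes 34 were tested, and RT1-CE2 was the only one called by edgeR (lower, beside 0.0403% of all genes). DESeq2 called 9 of them lower (beside 0.263% of all genes with its adjusted p). The authors' deposited table also called 9 lower (beside 0.115% of its features), and neither called any higher. Lower levels with an unadjusted p under 0.05 were found for 20 (beside 2.68% of all genes) and higher ones for none (beside 2.21%). Both S280D libraries lay below both WT libraries for 26 of the 34 (76.5%, beside 21.2% of all genes). The median log2 fold change was -0.5. All 20 tested RT1 genes lie on chromosome 20, and for 13 of them fewer than 50% of exon reads were unique, so reads of these near-identical genes may have been divided among copies. On unique reads the list median was -0.49 and no member was called by edgeR.

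RT1-A1, a classical class I heavy chain, stood at 272 and 276 CPM in S280D and 533 and 529 CPM in WT. Its log2 fold change was -0.96 ± 0.15 (adjusted p = 0.0874), with 28.8% of its exon reads unique. RT1-A2 stood at 24.9 and 22.6 CPM in S280D and 60.5 and 48.2 CPM in WT (-1.19 ± 0.21, adjusted p = 0.151), RT1-T24-4 at 12.5 and 13.2 CPM against 28.7 and 39.4 CPM (-1.41 ± 0.25, adjusted p = 0.151). RT1-CE10 had 63.6 and 60.4 CPM in S280D and 125 and 123 CPM in WT (-1 ± 0.19, adjusted p = 0.171). For RT1-A1 the S280A libraries, at 364 and 456 CPM, and the YFP libraries, at 513 and 386 CPM, lay between those of S280D and WT.

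Of the 14 tested members of the list that are not RT1 genes, 7 had an unadjusted p under 0.05 with a lower level (beside 2.68% of all genes). Of these, Psmb9, Tap1, Tap2_1 and Tapbp lie on chromosome 20, as the RT1 genes do. Tap2_1, with only 2.26% of its exon reads unique, had a log2 fold change of -0.81 ± 0.18 (adjusted p = 0.283). The other entry of that gene, Tap2_2, had -0.15 ± 0.2 with overlapping groups, so the value for Tap2 is uncertain. B2m, the light chain, had 3549 and 3287 CPM in S280D and 5000 and 4561 CPM in WT (log2 fold change -0.48 ± 0.15, adjusted p = 0.725). Tap1, which carries peptides into the endoplasmic reticulum with Tap2, had 292 and 343 CPM in S280D and 397 and 444 CPM in WT (-0.4 ± 0.15, adjusted p = 0.94). Psmb9, a catalytic subunit of the immunoproteasome, which cuts proteins into such peptides, had 47 and 54.1 CPM in S280D and 90.5 and 85.9 CPM in WT (-0.8 ± 0.17, adjusted p = 0.258). Psmb10 and Psmb8, the other subunits of that kind, differed by -0.55 ± 0.2 and -0.36 ± 0.17. Tapbp, which loads the peptide, differed by -0.49 ± 0.14. Calreticulin, calnexin and Pdia3, general chaperones of the same compartment, differed by -0.05, 0.05 and -0.01, each with an SE of 0.12 or 0.13.

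Complement genes, likewise listed with the values known, held 10 tested members and no call by edgeR. DESeq2 called 3 of them lower, among them C1s and C4b (beside 0.263% of all genes with its adjusted p). The authors' deposited table also called 3 lower (beside 0.115% of its features). An unadjusted p under 0.05 was found for 7 with a lower level (beside 2.68% of all genes) and 2 with a higher one (beside 2.21%). Among these 7 were C2_1, C2_2 and C4a_2, with 7.24%, 17.1% and 25.8% of their exon reads unique. The spans of C2_1 and C2_2 overlap, as do those of C4a_2 and C4b. These entries may share reads, so the 7 are not separate observations. C1s, the protease that starts the classical cascade, had 152 and 147 CPM in S280D and 256 and 229 CPM in WT, a log2 fold change of -0.7 ± 0.12 (adjusted p = 0.151). Its partner C1r stood at 320 and 340 CPM in S280D and 432 and 450 CPM in WT (-0.42 ± 0.12, adjusted p = 0.568). C4b, cleaved by C1s, stood at 50.1 and 36 CPM in S280D and 97.6 and 92.1 CPM in WT (-1.13 ± 0.25, adjusted p = 0.3), with 34% of its reads unique. Cd55 and Cd59, which protect cells from complement, had positive values of 0.49 ± 0.16 and 0.7 ± 0.25 (adjusted p = 0.843 and 0.916).

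Among the listed interferon response genes Gbp5 was the only member that passed (lower, beside 0.0403% of all genes). Of 30 listed genes 29 were tested, 10 had an unadjusted p under 0.05 with a lower level (beside 2.68% of all genes) and none with a higher one, and the median log2 fold change was -0.25. DESeq2 and the authors' deposited table each called 2 members lower. Both S280D libraries were below both WT libraries for 16 (55.2%, beside 21.2% of all genes). After Gbp5 and Psmb9 came Cmpk2, a mitochondrial nucleotide kinase induced by interferon, with 38.7 and 36.8 CPM in S280D and 58 and 59.8 CPM in WT (-0.64 ± 0.19, adjusted p = 0.709). Among the most abundant was Ifit3, chosen after its values were seen, with 3058 and 2387 CPM in S280D and 3316 and 3177 CPM in WT. The ISRE core was present in the promoters of 11 of the 20 tested members with a sequence, and the NF-κB consensus in 4 of the 20.

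Intron reads gave a second readout of the same libraries, on which 12988 genes were tested. None was called in either direction by edgeR, and at an unadjusted p under 0.05, 224 genes were lower (1.72%) and 179 higher (1.38%). Zc3h12a had 11 and 14.8 CPM of intron reads in S280D and 15.8 and 9.12 CPM in WT, a log2 fold change of 0.02 ± 0.45, where its exon reads gave -2.44. Nfkbiz, with -0.32 ± 0.62 on introns, likewise overlapped between the groups. Gbp5 had 7.96 and 5.57 CPM of intron reads in S280D and 12.3 and 19.3 CPM in WT (-1.18 ± 0.38, adjusted p = 1). Intron reads of Nfkbia stood at 1.24 and 1.21 CPM in S280D and 5.55 and 4.91 CPM in WT (-2.06 ± 0.64, adjusted p = 1). RT1-A1 introns gave -1.15 ± 0.27 and RT1-CE2 introns -1.42 ± 0.27 (adjusted p = 0.789 and 0.604), beside exon values of -0.96 and -1.9. The span of RT1-A1 encloses RT1-A2, and that of RT1-CE2 encloses RT1-CE4 and RT1-CE7, so these intron reads may include reads of neighbouring genes. In S280D, RT1-CE2 had 231 and 224 CPM of intron reads, beside 2.9 and 2.28 CPM of exon reads. Cxcl1 had too few intron reads to be tested. Whether exon and intron changes of a gene differ was not tested.

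**Figure D4:**
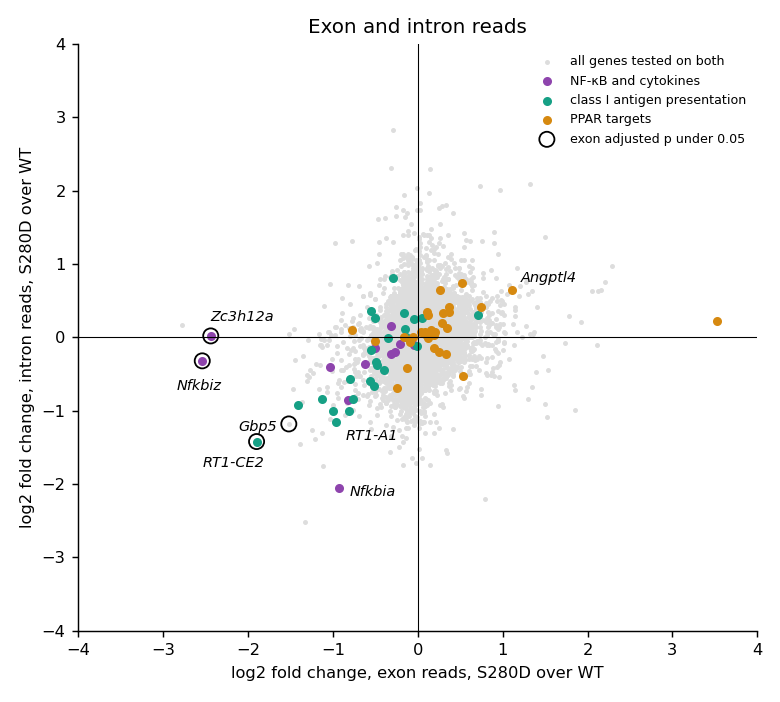
Log2 fold change of S280D over WT on exon reads (horizontal axis) and on intron reads (vertical axis) for 9892 genes tested on both, with members of 3 lists coloured and rings on the genes called on exon reads. Zc3h12a lies at 0.02 on the intron axis and RT1-CE2 at -1.42, where reads of class I genes inside its span may be included. Genes beyond 4 on either axis, 2 in all, are not shown.

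PPAR target genes had mostly positive values, and none passed the test. Of 54 listed genes 35 had enough reads. At an unadjusted p under 0.05, 7 of these were higher (beside 2.21% of all genes) and 2 lower (beside 2.68%). Both S280D libraries lay above both WT libraries for 19 of the 35 (54.3%, beside 19.4% of all genes) and below for 5 (14.3%, beside 21.2%). The median log2 fold change was 0.2, and 0.16 to 0.26 over the alternatives. In the same libraries mitochondrially encoded genes, whose part in this was not tested, took 1.66% and 1.4% of exon reads in S280D and 1.37% and 1.17% in WT.

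Angptl4, a secreted inhibitor of lipoprotein lipase and a classical direct target, had 19 and 18.3 CPM in S280D and 7.6 and 9.65 CPM in WT. S280A stood at 7.72 and 4.91 CPM and YFP at 3.34 and 1.99 CPM, so both S280D libraries were the highest of the 8. The log2 fold change was 1.11 ± 0.25, with a 95% interval of 0.57 to 1.66 and an adjusted p of 0.3. DESeq2 called it at an adjusted p of 0.0268, and the authors' deposited table gave a fold of 2.2 with an adjusted p of 0.0231.

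Enzymes of fatty acid oxidation gave smaller values. Ech1, an isomerase for unsaturated fatty acids, stood at 28 and 35.8 CPM in S280D and 17.5 and 20.4 CPM in WT (log2 fold change 0.75 ± 0.18, adjusted p = 0.392). Cpt1a, which attaches fatty acids to carnitine for entry into mitochondria, had 30.1 and 29.1 CPM in S280D and 23.4 and 17.8 CPM in WT (0.52 ± 0.19, adjusted p = 0.932). In S280A Ech1 had 25.8 and 34.1 CPM and in YFP 27.4 and 23.6 CPM, so its WT libraries were the lowest of the 8. Cpt1a had 23.9 and 27.9 CPM in S280A and 19.4 and 13.8 CPM in YFP. Cpt1b, the muscle form, differed by 0.29 ± 0.2 (adjusted p = 0.948). Mitochondrial fatty acid oxidation had 25 tested genes. At an unadjusted p under 0.05, 4 were higher (beside 2.21% of all genes) and 1 lower (beside 2.68%). The median of the 25 was 0.07, and both S280D libraries were above both WT libraries for 9 (36%, beside 19.4% of all genes).

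Some targets had negative values or values near 0. Pnpla2, the triglyceride lipase of lipid droplets, had 21.6 and 23.1 CPM in S280D and 38.2 and 38.6 CPM in WT (log2 fold change -0.78 ± 0.16, adjusted p = 0.216), but only 0.128% of its exon reads were unique, so its value is uncertain. Its levels were 40.9 and 30 CPM in S280A and 26.5 and 24 CPM in YFP. DESeq2 called it lower at an adjusted p of 0.0129, and the authors' deposited table gave a signed fold of -1.69 with an adjusted p of 0.0317. Mlycd, which removes the malonyl-CoA that blocks fatty acid entry, stood at 15.4 and 16 CPM in S280D and 21 and 23.7 CPM in WT (-0.51 ± 0.15, adjusted p = 0.623). Plin2, a coat protein of lipid droplets, had 90.9 and 95.9 CPM in S280D and 97.6 and 101 CPM in WT (-0.09 ± 0.11). The lipoprotein receptor gene Vldlr stood at 1018 and 999 CPM in S280D and 950 and 923 CPM in WT (0.11 ± 0.11), and the uncoupling protein gene Ucp2 at 29.8 and 36.2 CPM against 22.8 and 29.9 CPM (0.33 ± 0.16). The intervals were -0.34 to 0.15 for Plin2 and -0.12 to 0.34 for Vldlr. Cd36, Pdk4 and Ucp3 had too few reads to test, with 19 and 7, 4 and 5, and 2 and 0 reads in S280D and 8 and 2, 3 and 0, and 1 and 0 in WT. The receptor's own element, AGGTCA repeated after a gap of 1 base of any kind and with up to 2 mismatches, was found upstream of 2 of 27 tested targets with a sequence and in 3.11% of all promoters, and not in the 250 bases of Angptl4. Among the 5 called genes it was found in RT1-CE2, 34 to 22 bases before the start.

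**Figure D5:**
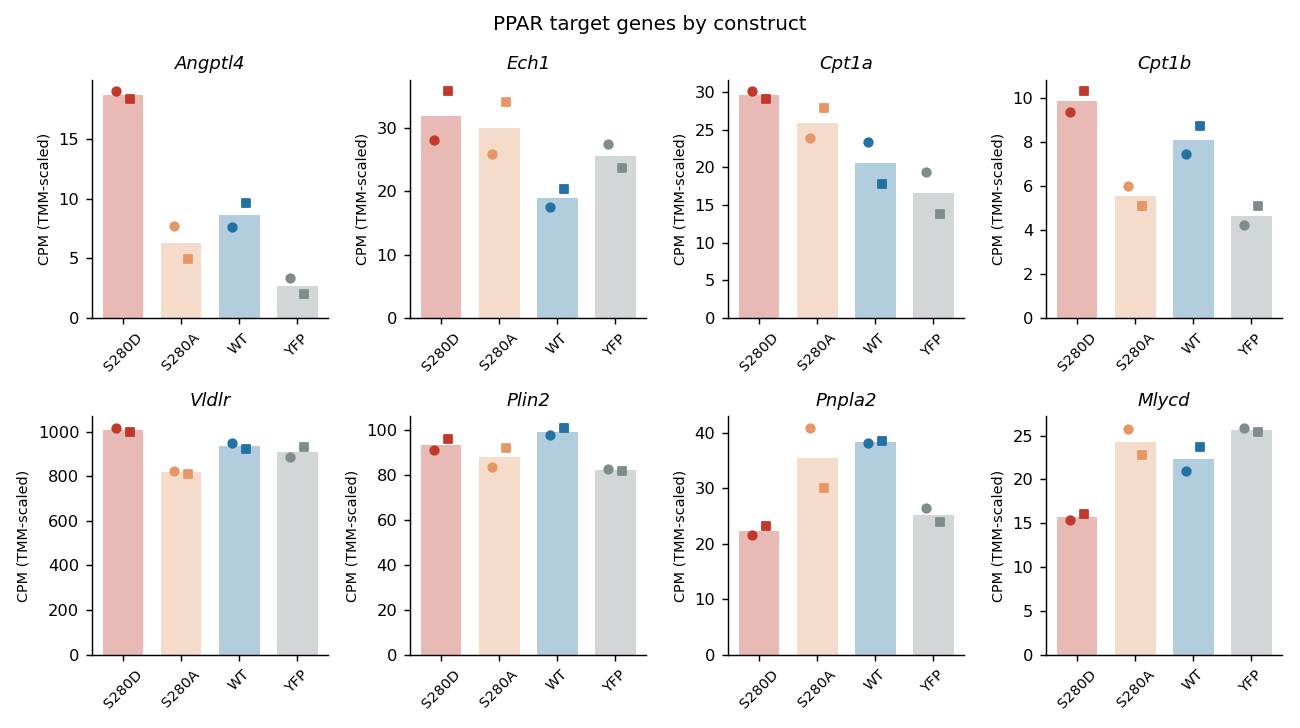
CPM (vertical axes, from 0) of 8 PPAR target genes by construct, with means of 2 libraries as bars, replicate 1 as circles and replicate 2 as squares. Angptl4 is highest in both S280D libraries, and Pnpla2 and Mlycd are lower in S280D than in WT.

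Cholesterol biosynthesis genes had mostly positive values. Of 22 tested genes none passed, and the median was 0.22. At an unadjusted p under 0.05, 4 were higher (beside 2.21% of all genes) and none lower (beside 2.68%). Both S280D libraries lay above both WT libraries for 13 of the 22 (59.1%, beside 19.4% of all genes) and below for 0. Acat2, which joins acetyl-CoA units, had 33 and 33.1 CPM in S280D and 24.9 and 23.7 CPM in WT (log2 fold change 0.44 ± 0.14, adjusted p = 0.774). Cyp51, a lanosterol demethylase, had 144 and 138 CPM in S280D and 99.1 and 111 CPM in WT (0.42 ± 0.14, adjusted p = 0.802). Acat2 had 35.6 and 37.1 CPM in S280A and 34.3 and 41.7 CPM in YFP, above both WT libraries. Cyp51 had 120 and 104 CPM in S280A and 111 and 139 CPM in YFP. Lss, which closes the sterol rings, gave 0.33 ± 0.15 and Idi1, an isomerase of isoprenoid units, 0.7 ± 0.31 (adjusted p = 0.948 each). Ebp was lowest at -0.48 ± 0.32.

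Genes that sense, take up or export sterols had values on both sides of 0. Of 21 tested, none had an unadjusted p under 0.05, and the median was -0.01. Scap, the escort of the sterol-sensing transcription factors, differed by -0.27 ± 0.13, and the factor genes Srebf1 and Srebf2 by -0.06 ± 0.13 and -0.02 ± 0.11. Insig1, which holds Scap back, gave 0.45 ± 0.26 at 7.98 and 6.15 CPM in S280D and 5.35 and 5.07 CPM in WT. The sterol element TCACNCCAC was found in no promoter of 17 cholesterol genes with a sequence and in 0.976% of all.

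Genes outside the lists above with small p-values are given next. On the higher side Cacna1g, a T-type calcium channel, had 89.2 and 99.7 CPM in S280D and 59.1 and 61.5 CPM in WT (log2 fold change 0.65 ± 0.11, adjusted p = 0.151). Cav2, a caveolin, had 78.9 and 92.8 CPM in S280D, 48.4 and 42.5 CPM in WT and 7.61 and 7.31 CPM in YFP (0.92 ± 0.18 over WT, adjusted p = 0.21). Murc, a muscle protein of the caveolar coat, stood at 15.5 and 16.6 CPM in S280D and 9 and 10.2 CPM in WT (0.74 ± 0.18, adjusted p = 0.376). Scara5, a receptor for ferritin, had 27.4 and 27.8 CPM in S280D and 14.6 and 16.1 CPM in WT (0.85 ± 0.17, adjusted p = 0.21). Scara5 had 23.9 and 20 CPM in S280A and 25 and 32.7 CPM in YFP, above both WT libraries. Cacna1g had 85.5 and 84 CPM in S280A and 60.3 and 60.4 CPM in YFP. Csgalnact1, an enzyme of chondroitin sulfate synthesis, differed by 0.7 ± 0.16 (adjusted p = 0.365). On the lower side Tnc, a matrix protein, had 39.2 and 40 CPM in S280D and 61 and 62.5 CPM in WT (-0.64 ± 0.12, adjusted p = 0.151), and Ier3, an early response gene, 58.2 and 64.7 CPM against 91.5 and 116 CPM (-0.76 ± 0.14, adjusted p = 0.161). Tnc had 46.6 and 48.6 CPM in S280A and 36.4 and 34 CPM in YFP, below both WT libraries. Ier3 had 83.5 and 92.2 CPM in S280A and 81.2 and 88.8 CPM in YFP. DESeq2 called Cacna1g, Cav2, Scara5, Csgalnact1, Tnc and Ier3 in the same directions, and not Murc.

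Both glycogen synthase kinase 3 genes were measured as well. Gsk3a had 65.4 and 65.5 CPM in S280D and 62.7 and 73.9 CPM in WT (log2 fold change -0.06 ± 0.13), and Gsk3b 248 and 240 CPM against 216 and 204 CPM (0.22 ± 0.11, adjusted p = 0.948). Their 95% intervals were -0.35 to 0.23 and -0.03 to 0.47.

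Cell cycle genes had a median of -0.17 and no call. Of 28 tested, 6 had an unadjusted p under 0.05 with a lower level (beside 2.68% of all genes), among them the mitotic kinases Aurkb (-0.4 ± 0.13) and Plk1 (-0.41 ± 0.13) and the replication factor Mcm3 (-0.49 ± 0.16). Both S280D libraries were below both WT libraries for 18 (64.3%, beside 21.2% of all genes). Of the 28, 20 had negative and 8 positive values. Mki67 and Top2a, chosen after their values were seen, gave 0.15 ± 0.27 and 0.12 ± 0.24. The 28 genes summed to 1863 and 1852 CPM in S280D and 1939 and 2008 CPM in WT. That sum includes the cell cycle inhibitors Cdkn1a and Cdkn1b, so it does not measure how many cells divided. Genes encoded in mitochondria had a median of 0.22 over 11 tested, with 8 (72.7%, beside 19.4% of all genes) higher in both S280D libraries. At an unadjusted p under 0.05 Mt-nd3 alone was higher (0.3 ± 0.13), beside 2.21% of all genes.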

How the data were processed

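Poly(A) RNA of H9C2 cells was sequenced in 8 libraries, 2 per group. The authors deposited raw counts of total exon, unique exon and total intron reads per gene, per the file headers. The genome build was Rnor 6.0, per the submitters' processing notes, and aligner, annotation and counting were not given in the sources used here. From the authors' deposited tests, adjusted p-values and signed fold changes, held here as a score because a fall is written below -1, were used, per the file headers. Another 153 columns of per-sample values were not used. WT replicate 2 has the title number 2 and another number in its description.

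Total exon counts went through filterByExpr and TMM scaling in edgeR 4.0.16 (R 4.3.3). A two-sided quasi-likelihood test with 1 coefficient for each group used all 8 libraries, with 4 residual degrees of freedom and Benjamini-Hochberg adjustment at 0.05. The biological coefficient of variation was 0.133. CPM are TMM-scaled and SE is the size of the log2 fold change divided by the square root of F. Counts cover 14018785 to 39526013 exon reads per library, and amplified reads with no molecular identifiers cannot be taken as separate molecules.

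Members and lists were chosen with earlier results of these data known. Genes named are Ppara, all called genes, up to 8 further per direction with the smallest p, up to 3 per list, and a fixed panel with the sterol genes, and others are marked. Some genes under this rule are not reported here. Of 808 list symbols 772 were matched. Alternatives were RLE factors, other filters, DESeq2 1.42.0, other sets of libraries, lane, replicate block, unique reads, a 1.5-fold threshold, thinning and an exon length offset. List medians and introns with the block were added after seeing the data. The fit was tested on simulated counts.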

Additional observations from a re-analysis of the deposited data

How the results depend on the processing

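The count of genes called higher and lower, 0 and 5 as reported, depended on the fit. It was 42 and 87 with no filter on low counts, 8 and 32 with DESeq2, and 7 and 26 with only the 4 libraries compared. It was 0 and 1 with the lane covariate, 0 and 2 against 1.5-fold and 0 and 3 with libraries thinned to the smallest total. RLE factors and a filter at 1 CPM gave 0 and 4, and unique reads and the length offset 0 and 5. Leaving out 1 library gave 0 to 1 higher and 0 to 2 lower. Without S280D replicate 2 none was called. A group left with 1 library is assumed to vary like the others. On intron reads the counts of 0 and 0 became 0 and 2 with the 4 libraries and 1 and 0 with the lane covariate, and ranged from 0 to 4 higher and 0 to 1 lower without single libraries. Other intron alternatives were not run.

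With the replicate block 0 genes were higher and 3 lower, namely Cxcl1, Gbp5 and Zc3h12a, with adjusted p of 0.0923 for Nfkbiz and 0.133 for RT1-CE2. Deviations of same-numbered libraries correlated at 0.203 between S280D and WT, 0.286 between S280D and S280A and 0.17 between S280A and WT, but at -0.202, -0.249 and -0.125 between YFP and S280D, S280A and WT. Not every pair was over 0.1 and the labels give the numbers no meaning, so the libraries were not taken as paired. On introns the block gave 0 and 0.

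The Ppara difference of -0.04 became 0.05 with the lane covariate, and without single libraries it ranged from -0.44 to 0.53. For single genes, values that changed sign follow. Lbr became 0.01 with RLE factors, no filter and DESeq2, 0 with the 4 libraries, and 0.03 with lane and thinning. Mvd became 0 with RLE factors, no filter and DESeq2 and 0.03 on unique reads. With lane Il6 became -0.09 and Mylip 0.05. Thinning gave Mylip 0.06, Sc5d -0.03 and Srebf1 0.02, and the length offset Ggps1 0 and Sc5d -0.01. Hsd17b7, otherwise at 0.24, became -0.53 on unique reads. Without single libraries Hsd17b7 ranged from -0.26 to 1, Il6 from -0.17 to 0.43, Lbr from -0.03 to 0.03, Mbtps2 from -0.01 to 0.43, Mvd from -0.13 to 0.12, Mylip from -0.16 to 0.13, Srebf1 from -0.17 to 0.05. The ranges were Osbp at -0.14 to 0.02, Stard4 at -0.79 to 0.1, Tm7sf2 at -0.15 to 0.29, Abcg4 at -0.72 to 0.01, Gsk3a at -0.17 to 0.07, Insig2 at -0.08 to 0.68, Nsdhl at -0.08 to 0.24 and Srebf2 at -0.05 to 0.03. The cause was not tested. The medians of the NF-κB, interferon, class I, PPAR target, fatty acid oxidation and cholesterol lists kept their sign under every alternative run.

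At these depths genes under 1 CPM rest on few reads, and 2 libraries a group limit which differences can pass.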

Other observations

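Other gene groups showed no call by edgeR in S280D against WT, and some lay to one side. Extracellular matrix genes had 26 tested members with a median log2 fold change of 0.11. Of these 4 had an unadjusted p under 0.05 with a higher level (beside 2.21% of all genes) and none with a lower one. Dcn, a small proteoglycan that binds collagen, had 29.5 and 28.4 CPM in S280D and 19.5 and 19.9 CPM in WT, a log2 fold change of 0.55 ± 0.15 (SE, edgeR adjusted p = 0.569). Thbs2, a thrombospondin, gave 0.62 ± 0.19 and Timp3, an inhibitor of matrix proteases, 0.46 ± 0.16 (adjusted p = 0.719 and 0.895). Fn1, fibronectin, which was chosen after its values were seen, stood at 32065 and 31221 CPM in S280D and 36021 and 37542 CPM in WT (-0.22 ± 0.13).

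Nuclear-encoded respiratory chain genes had a median of -0.1 over 35 tested, where mitochondrially encoded ones had 0.22. Both S280D libraries lay below both WT libraries for 13 (37.1%, beside 21.2% of all genes) and above for 3 (8.57%, beside 19.4%). Cox5a, a subunit of cytochrome oxidase, had 107 and 115 CPM in S280D and 140 and 135 CPM in WT (-0.31 ± 0.12, adjusted p = 0.948). Proteasome subunits had a median of -0.1 over 30 tested, with 15 (50%, beside 21.2% of all genes) below both WT libraries. Tricarboxylic acid cycle genes had -0.09 over 18 and glycolysis genes -0.11 over 22. Of the glycolysis genes 11 (50%, beside 21.2% of all genes) were below both WT libraries. Desaturase Scd2 led the fatty acid synthesis list (0.41 ± 0.14, adjusted p = 0.85). Its levels were 312 and 312 CPM in S280D and 241 and 227 CPM in WT. S280A had 327 and 289 CPM and YFP 335 and 439 CPM, also above both WT libraries. The binding protein gene Fabp5 had 11 and 2 reads in S280D and 18 and 17 reads in WT. Its log2 fold change of -2.25 ± 0.6 did not pass in edgeR (adjusted p = 0.506) or DESeq2 (adjusted p = 0.653). The authors' deposited table called it lower, with a signed fold of -4.54 and an adjusted p of 0.0131.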
